A study of Glycine max with 8 samples.

Results

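Light affects legume nodulation, and 4 light-signalling genes were followed here in soybean (Glycine max) nodules, the root organs that house nitrogen-fixing rhizobia. The STF proteins are bZIP transcription factors of the HY5 family, which in the dark are marked for degradation by the COP1 ubiquitin ligase and in the light accumulate and switch on light-responsive genes. In soybean, some STF proteins and the florigen FLOWERING LOCUS T 2a are known to move from illuminated shoots to roots, where they act with nodulation regulators. Whether the STF genes measured here encode such mobile proteins was not examined. Phytochrome A is a photoreceptor for far-red and red light, and its soybean genes E3 and E4 are maturity loci that delay flowering in long days. Both photoreceptors act upstream of the repressor E1 and of the FLOWERING LOCUS T genes.

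The 4 genes were chosen by name, with earlier results of these data known, out of 43517 genes in the count table, and all 4 passed the filter on low counts that left 29508 genes for testing. They were the STF genes Glyma.08G302500.Wm82.a2.v1 on chromosome 8 and Glyma.18G117100.Wm82.a2.v1 on chromosome 18, E3 (Glyma.19G224200.Wm82.a2.v1, chromosome 19) and E4 (Glyma.20G090000.Wm82.a2.v1, chromosome 20). The chromosome was read from the identifier. The first pair comprises STF1 and STF2, which are called here by chromosome because neither deposited file pairs a number with an identifier. Reads of such related copies can be hard to assign, so the split between copies is uncertain. How many such reads there were, and whether the sum of the copies is affected, was not examined.

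All plants received low nitrogen and the strain labelled Bra.Q2. Group R had this strain alone and group BR had both Bra.Q2 and another strain, labelled Bac.B, with 4 nodule RNA libraries per group (R1 to R4 and BR1 to BR4). The 1 comparison in the design, BR against R, asks which nodule transcripts differed when the second strain was present. The soybean cultivar, the plants behind each library and the light regime were not used here. Nothing says that libraries came from separate plants, so the tests measure library-to-library spread only, part of which may be technical.

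Library totals lay between 15133989 and 17287964 counts in BR and between 14223489 and 15266510 in R. The R libraries were not alike: on the first principal component of log2 CPM (counts relative to a fixed library size, after TMM scaling between libraries), which held 48.6% of the variance, BR libraries scored from -62.2 to -51.1, R2 -3.1, R1 29.1, R3 95.9 and R4 102.5. Fold changes of the tested genes described below are therefore also given without R1 and R2 and without R3 and R4. As a check of the tissue, 4 genes listed as leghemoglobin, the oxygen carrier of infected nodule cells, took 5.19% to 7.51% of all counts in BR and 5.3% to 7.89% in R. Over all tested genes 5409, or 18.3%, were called different between groups by edgeR's quasi-likelihood test at a Benjamini-Hochberg adjusted p under 0.05, 7.98% higher and 10.3% lower in BR.

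Of the 4 light-signalling genes, the STF gene on chromosome 8 was higher in BR by 1.48-fold and was the 1 gene that passed the test, so that 1 of 4 was called where 18.3% of all tested genes were. Its copy on chromosome 18 and E4 had higher means in BR, and E3 had a lower mean, but none of these 3 passed. The log2 fold changes of the 4 genes ran from -1.08 to 0.65, with a median of 0.47, against -0.02 over all tested genes. This median does not show a shift of the set, since E3 went the other way and the STF copies varied together (correlation 0.94). In bulk nodule RNA, a change in the share of a cell type and a change in RNA per cell cannot be told apart.

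Libraries BR1 to BR4 held 210, 261, 244 and 265 counts of the STF gene on chromosome 8, and libraries R1 to R4 held 155, 140, 128 and 95. In CPM these were 13.3, 14.3, 13.5 and 14.8 in BR and 11.1, 10.1, 9.48 and 6.91 in R. Every BR library lay above every R library, and R4 was the lowest of all 8. The group means were 14.0 ± 0.725 CPM in BR and 9.41 ± 1.8 CPM in R (SD, n = 4). The log2 fold change of BR over R was 0.57 with an SE of 0.16 (adjusted p = 0.0393 by edgeR). Groups without overlap in CPM were found for 24.5% of all tested genes, and for 11.4% with BR above R.

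This call rested on a narrow margin. It was lost when any one of BR1, BR2, BR3, BR4, R3 or R4 was left out, with edgeR adjusted p-values of 0.0675, 0.075, 0.0845, 0.102, 0.0813 and 0.0694, and it held without R1 (adjusted p = 0.0372) or R2 (0.0361). Without R3 and R4 the log2 fold change was 0.42 (edgeR adjusted p = 0.117), and without R1 and R2 it was 0.78 (adjusted p = 0.0117). Its sign was positive in all 21 alternative settings.

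For the STF gene on chromosome 18 the counts were 188, 174, 194 and 210 in libraries BR1 to BR4, and 124, 119, 93 and 49 in libraries R1 to R4. In CPM the values were 11.9, 9.5, 10.7 and 11.8 in BR and 8.91, 8.59, 6.89 and 3.56 in R. Again no BR library overlapped with R, and R4 stood lowest. The means were 11.0 ± 1.11 and 6.99 ± 2.45 CPM (SD, n = 4), and the log2 fold change was 0.65 with an SE of 0.26 (adjusted p = 0.106 by edgeR). The estimate was larger than that of its copy on chromosome 8, but R varied more, with a coefficient of variation of 35% against 19.1% for the other copy. With library totals alone in place of TMM the gene passed at a log2 fold change of 0.85 (adjusted p = 0.0419), a scaling that shifted log2 fold changes upward by a median of 0.19 over all genes. Without R1 and R2 it passed at 1.08 (adjusted p = 0.0142), and without R3 and R4 it stood at 0.35 (adjusted p = 0.229).

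**Figure D1:**
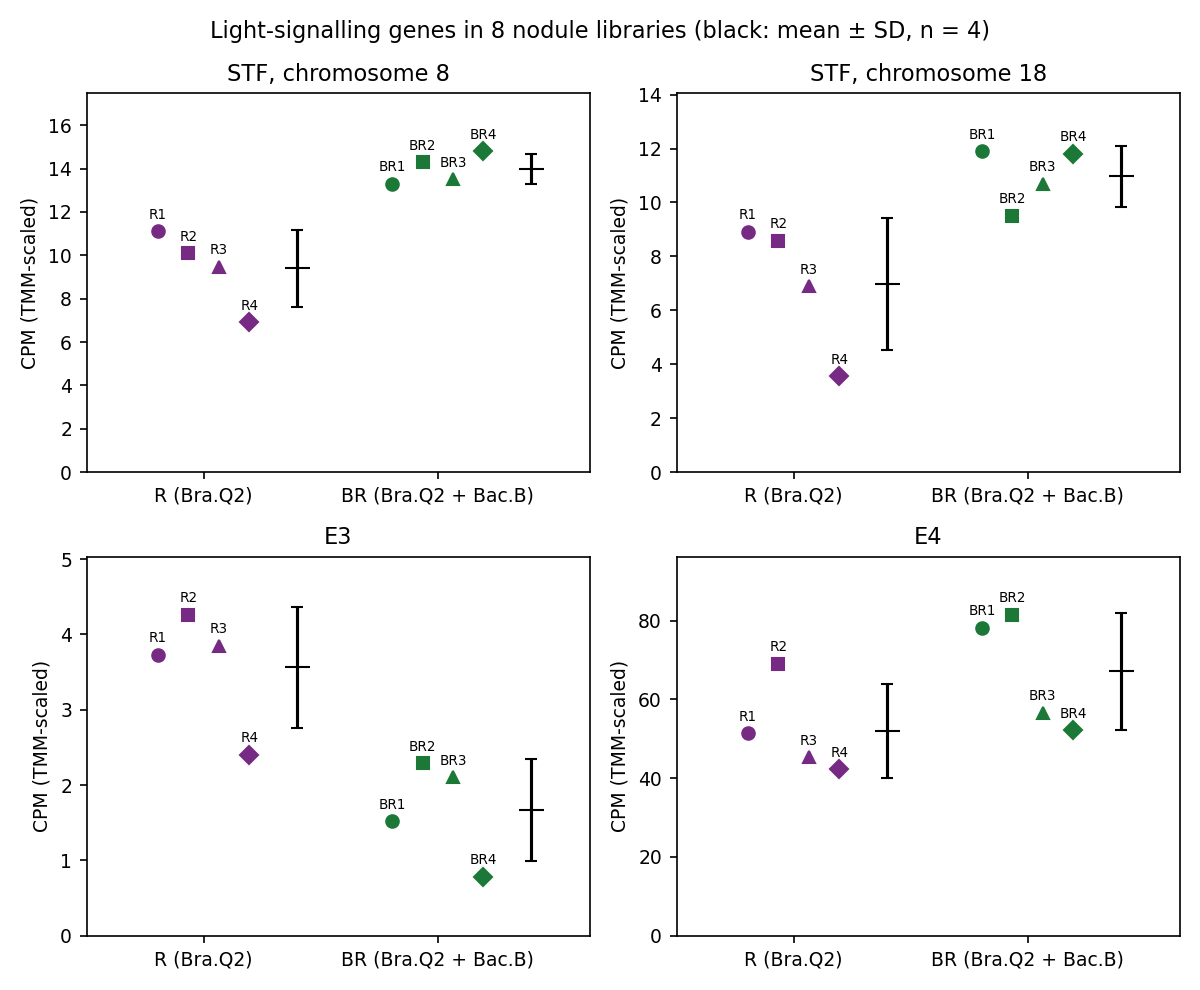
CPM (TMM-scaled, linear axes from 0) of the 4 genes in each of the 8 nodule libraries, with the mean and SD of each group of 4 in black. Both STF genes lay higher in all BR libraries than in any R library, E3 lay lower by this scaling, and E4 overlapped between groups.

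The proportion of the 2 STF copies to each other overlapped between the groups. A ratio of 2 genes within a library does not depend on how libraries are scaled. Per length, in the deposited FPKM (fragment counts divided by library size and gene length), the chromosome 8 copy was the higher one in 8 of 8 libraries, by 1.04-fold in BR1 up to 1.81-fold in R4. The log2 ratio of their counts (each plus 0.5) was 0.35 ± 0.17 in BR and 0.49 ± 0.32 in R (SD, n = 4), a difference of -0.14 (p = 0.571 by exact two-sided permutation, and 0.571 after adjustment over 2 ratios). This test did not resolve a change in the proportion, and the difference was 0.07 without R3 and R4 and -0.35 without R1 and R2. Together the pair held 18.3 ± 0.994 FPKM in BR and 10.5 ± 2.65 FPKM in R (SD, n = 4), with sums from 17.2 to 19.6 and from 6.7 to 12.6. These sums carry no TMM factor and were not tested. Tests on FPKM shifted log2 fold changes upward by a median of 0.18 to 0.2 over all genes. Even in TMM-scaled CPM, 11.4% of single tested genes had every BR library above every R library.

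E3, a phytochrome A gene, was near the low end of detection in nodules. Its counts were 24, 42, 38 and 14 in libraries BR1 to BR4, and 52, 59, 52 and 33 in libraries R1 to R4. Counting error alone gives the 14 counts of BR4 a 95% Poisson interval from 7.65 to 23.5. In CPM the values were 1.52, 2.29, 2.1 and 0.784 in BR and 3.73, 4.26, 3.85 and 2.4 in R. The highest BR library, BR2, lay just under the lowest R library, R4, and in the deposited FPKM, which carry no TMM factor, BR2 (0.516) and BR3 (0.486) lay above R4 (0.477). All BR libraries below all R libraries in CPM were found for 13.1% of tested genes.

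The means of E3 were 1.67 ± 0.678 CPM in BR and 3.56 ± 0.806 CPM in R (SD, n = 4). The difference, -1.08 on the log2 scale (SE 0.34), missed the threshold at an edgeR adjusted p of 0.054. It passed with DESeq2 (log2 fold change -1.08, adjusted p = 0.0199) and with limma-voom (-1.15, adjusted p = 0.0479). It did not pass with any single library left out, where edgeR adjusted p-values ran from 0.0527 to 0.116, nor with library totals alone (-0.89, adjusted p = 0.0948). It stood at -0.88 without R1 and R2 (edgeR adjusted p = 0.136) and at -1.23 without R3 and R4 (adjusted p = 0.0738). The sign was negative in all 20 alternatives that kept the gene.

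E4, the other phytochrome A gene, was abundant by comparison, with 1236, 1493, 1026 and 931 counts in libraries BR1 to BR4, against 716, 958, 611 and 581 in libraries R1 to R4. In CPM these were 78.2, 81.5, 56.6 and 52.2 in BR and 51.4, 69.1, 45.3 and 42.3 in R. The groups overlapped, since R2 exceeded BR3 and BR4. Within BR the libraries fell into a higher pair, BR1 and BR2, and a lower pair, BR3 and BR4. In R the order was alike, with R1 and R2 above R3 and R4. The means were 67.1 ± 14.9 and 52.0 ± 12 CPM (SD, n = 4), and the log2 fold change was 0.37 with an SE of 0.21 (adjusted p = 0.241 by edgeR). E4 did not pass in any of 21 alternatives, with a lowest adjusted p of 0.0501 without R1 and R2, where the log2 fold change was 0.63; without R3 and R4 it was 0.18 (adjusted p = 0.651).

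**Figure D2:**
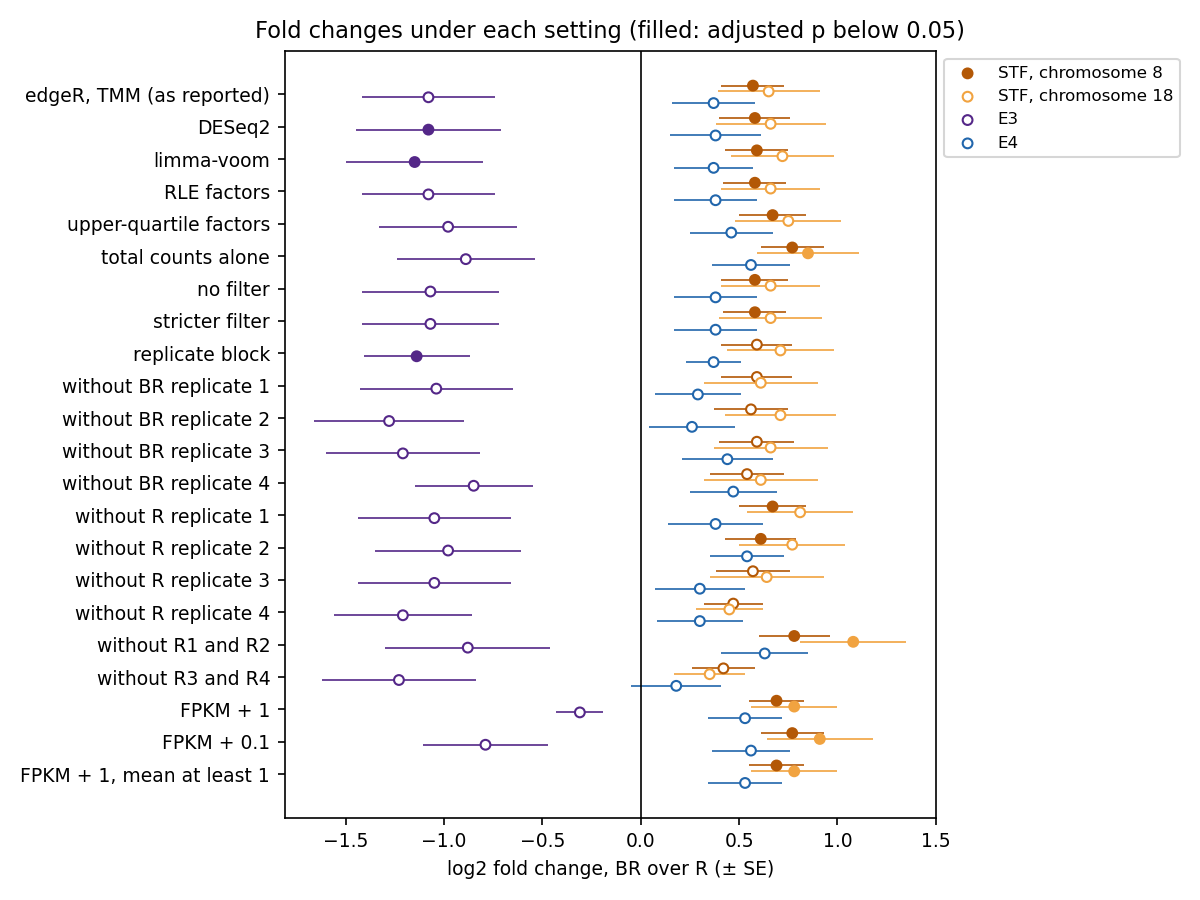
Log2 fold change of BR over R with its SE for each of the 4 genes, as reported (top row) and under each alternative setting; filled points have an adjusted p below 0.05. E3 lies left of 0 and the other 3 genes right of 0 in every setting shown, E4 is never filled, and the STF gene on chromosome 8 is filled in the reported test but not in most settings that leave out a library; E3 is missing from the last setting, whose filter removed it.

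The ratio of the 2 phytochrome A genes separated the groups. E4 exceeded E3 per length in every library. Their FPKM ratio was 62.3, 43, 32.7 and 80.5 in libraries BR1 to BR4, against 16.7, 19.7, 14.2 and 21.3 in libraries R1 to R4. Every BR ratio was thus above every R ratio. How many gene pairs have ratios that separate in this way was not counted, but 24.5% of single tested genes had no overlap in CPM. The ratio reuses the E3 counts, 14 to 59 per library, so it is not independent of the lower mean of E3 in BR. On the scale of log2 count ratios the means were 5.38 ± 0.56 in BR and 3.86 ± 0.26 in R (SD, n = 4), a difference of 1.52, or 2.88-fold. The exact two-sided permutation test gave p = 0.0286, which no split of 8 libraries into 4 and 4 can go below, and an adjusted p of 0.0571 over the 2 ratios, which is the lowest value possible when the other ratio does not also reach that limit. The difference lay between 1.32 and 1.74 with single libraries left out, and was 1.55 without R1 and R2 and 1.49 without R3 and R4.

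**Figure D3:**
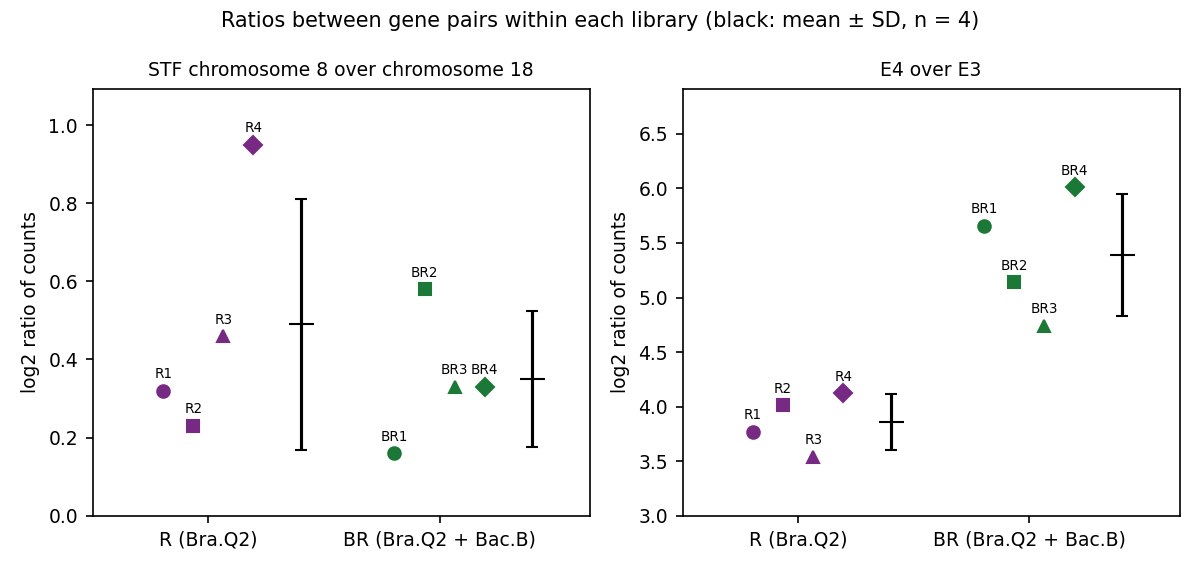
Log2 ratio of counts between the 2 STF genes (left, axis from 0) and between E4 and E3 (right, axis from 3) in each library, with the mean and SD of each group of 4 in black. STF ratios overlap between groups, with R4 highest at 0.95, whereas E4 over E3 runs from 4.74 to 6.01 in BR and from 3.54 to 4.12 in R.

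In order of level per length, E4 came first, then the STF gene on chromosome 8, then its copy on chromosome 18, and E3 last, in 8 of 8 libraries. Group means in FPKM were 18.4 ± 3.8 in BR and 12.5 ± 2.86 in R for E4, 9.93 ± 0.571 and 5.84 ± 1.07 for the STF gene on chromosome 8, 8.36 ± 0.831 and 4.65 ± 1.59 for that on chromosome 18, and 0.379 ± 0.155 and 0.705 ± 0.16 for E3 (SD, n = 4). The STF copies were neighbours in this order whose ranges overlapped in R and nearly met in BR; the other steps were wider than the spread between libraries. Among tested genes, 78.5% had a lower mean FPKM than E4, 63.9% and 58.9% a lower one than the STF genes on chromosomes 8 and 18, and 6.09% a lower one than E3.

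Other genes of the pathway were taken from a list of 11 identifiers for photoreceptors and photoperiod genes. These identifiers were assigned to gene families from general knowledge of soybean gene nomenclature; neither the deposited files nor the reference table used here pairs them with names, so each is called "listed as". Of the 11, 9 were in the count table and 5 were tested. Of these 5, 0 rose and 1 fell in BR, with 10.3% of all tested genes falling; their median log2 fold change was -0.16.

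The gene that fell was Glyma.09G035500.Wm82.a2.v1, listed as phytochrome B, the photoreceptor that dominates in continuous red light. Its level was 18, 20.4, 22.2 and 19.3 CPM in libraries BR1 to BR4, against 28, 28.8, 28.3 and 30.0 CPM in libraries R1 to R4, with no overlap, and its R libraries were close together. Such a separation, with every BR library below every R library in CPM, was found for 13.1% of tested genes. The log2 fold change of this gene was -0.52 with an SE of 0.12 (adjusted p = 0.016 by edgeR). The call was lost with library totals alone, at -0.33 (adjusted p = 0.0868), without BR4 (-0.51, adjusted p = 0.0546), without R3 and R4 (-0.48, adjusted p = 0.0613), and in the tests on FPKM; without R1 and R2 it held at -0.53 (adjusted p = 0.0212).

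The remaining tested genes of the list did not pass. Glyma.15G140000.Wm82.a2.v1, also listed as phytochrome B, had 14.2, 15.5, 25.1 and 21.3 CPM in libraries BR1 to BR4, against 20.2, 27.2, 13.3 and 10.3 CPM in libraries R1 to R4, a spread within each group that was wider than the difference between them (log2 fold change 0.1, SE 0.3; edgeR adjusted p = 0.848). Its sign was not settled, at 0.7 without R1 and R2 and -0.29 without R3 and R4. In BR it was lower in BR1 and BR2, where E4 was higher, whereas in R it ranked the libraries in the order E4 did, with R2 highest and R4 lowest. Glyma.10G141400.Wm82.a2.v1, listed as a further phytochrome A gene, was steadier, at 15.6 to 21.6 CPM in BR and 19.7 to 22.9 CPM in R (log2 fold change -0.16, SE 0.14; edgeR adjusted p = 0.444). Its log2 fold change was -0.2 without R1 and R2 and -0.08 without R3 and R4.

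Glyma.10G221500.Wm82.a2.v1, listed as GIGANTEA, a clock-controlled promoter of flowering genes in Arabidopsis, had 78.7 ± 11.6 CPM in BR and 75.4 ± 13.2 in R (SD, n = 4; edgeR adjusted p = 0.832); its log2 fold change of 0.06 was 0.3 without R1 and R2 and -0.11 without R3 and R4. Glyma.04G050200.Wm82.a2.v1, listed as EARLY FLOWERING 3, a part of the evening complex of the clock, had 36.3 ± 9.05 CPM in BR and 49.0 ± 16.5 in R (SD, n = 4; log2 fold change -0.43, edgeR adjusted p = 0.272). It passed without R1 and R2, at -0.77 (edgeR adjusted p = 0.022), and without R3 and R4 it stood at 0.05 (adjusted p = 0.915).

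The genes listed downstream of E3 and E4 in the photoperiod pathway were at or near 0 in nodules. Glyma.06G207800.Wm82.a2.v1, listed in the E1 family of flowering repressors, and Glyma.16G150700.Wm82.a2.v1, listed as FLOWERING LOCUS T, had 0 counts in all 8 libraries, which allows up to 3 counts per library (a one-sided 95% limit), or 0.174 to 0.211 CPM by library totals. Glyma.04G156400.Wm82.a2.v1, the other E1 family identifier in the table, had 1 count in R2 and in R3 and 0 elsewhere. Glyma.16G044100.Wm82.a2.v1, a second identifier listed as FLOWERING LOCUS T, had 1, 2, 3 and 6 counts in libraries BR1 to BR4, against 0, 1, 1 and 1 in libraries R1 to R4, too few to be tested. A transcript level near 0 in nodules says nothing of protein that arrives from the shoot.

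Within the 5 phytochrome identifiers measured (E3, E4 and the 3 listed genes), E4 made up 55.5% ± 6.5 of the summed FPKM in BR and 44.7% ± 3.3 in R (SD, n = 4), with ranges that overlapped, from 49.1% to 61.8% and from 42.4% to 49.5%. E3 made up 1.13% ± 0.4 in BR and 2.54% ± 0.41 in R, with no overlap. The FPKM of E3 itself did overlap, with BR2 (0.516) above R4 (0.477), so within FPKM the separation appears only after division by the sum. In TMM-scaled CPM, E3 itself separated narrowly, with BR2 at 2.29 and R4 at 2.4. How often shares of other genes separate was not counted. These shares are parts of a single sum and were not tested.

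**Figure D4:**
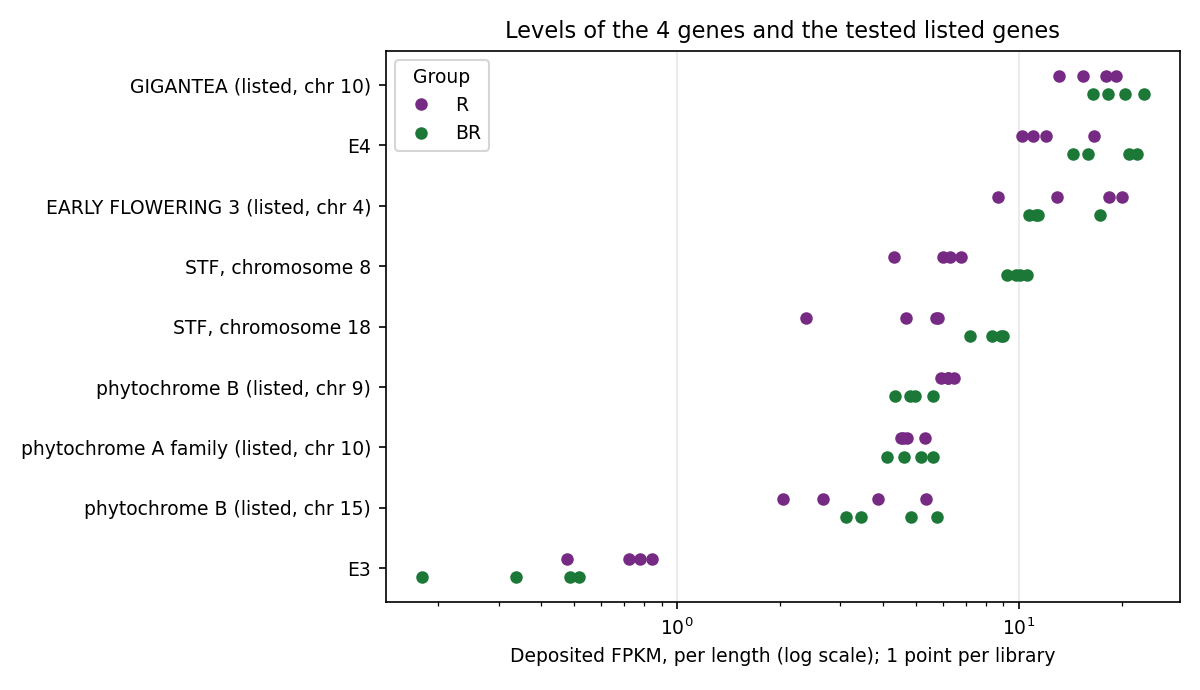
Deposited FPKM (log axis), which can be compared between genes, for the 4 genes and the 5 tested genes of the list, with 1 point per library and the groups side by side. E4 sits near the genes listed as GIGANTEA and EARLY FLOWERING 3, the STF genes sit in the middle with BR to the right of R, and E3 lies below 1 FPKM in all 8 libraries.

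Across the 8 libraries the STF copies followed each other most closely among the 4 genes. The Pearson correlation of their log2 CPM was 0.94, which exceeded that of 99.5% of tested genes with the chromosome 8 copy. E4 correlated with the STF genes at 0.617 and 0.621, E3 with them at -0.554 and -0.404, and E3 with E4 at -0.109. These values span both groups, so the BR-R difference enters them, and they are a description over 8 libraries. The tested gene most like the STF gene on chromosome 8 was Glyma.17G081700.Wm82.a2.v1, at a correlation of 0.992, with 11.2 CPM in BR and 5.65 in R on average. Closest to the chromosome 18 copy was Glyma.11G125600.Wm82.a2.v1 at 0.995, closest to E3 was Glyma.17G047900.Wm82.a2.v1 at 0.966 (2.97 CPM in BR and 5.99 in R), and closest to E4 was Glyma.07G267800.Wm82.a2.v1 at 0.978. Correlations over 0.9 were found for 535, 392, 136 and 168 tested genes with the STF genes on chromosomes 8 and 18, E3 and E4.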

How the data were processed

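The authors deposited raw read counts per gene and FPKM, with 1 column per nodule library, under Wm82.a2.v1 identifiers. The submitters' processing notes name HISAT2 2.1.0, TopHat2, Bowtie2 2.2.3, CASAVA and HTSeq 0.6.0, with no role or order; build and strand setting are not given in the sources used here. Counts, library totals and the deposited FPKM imply 1 length per gene in all libraries for 39910 of 39910 genes (within 0.1%), so FPKM carry no composition factor. The reference gene table matched 0 identifiers; lists based on its descriptions, green-tissue markers among them, were not applied, and the identifier list in the design was used. No sequences were used.

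Genes were filtered with filterByExpr (minimum count 10, minimum total 15), scaled by TMM (factors 1.05 to 1.1 in BR, 0.913 to 0.951 in R) and tested with edgeR 4.0.16 in R 4.3.3 by its quasi-likelihood F test with no covariate, with Benjamini-Hochberg adjustment over 29508 genes. SE in the edgeR fits is the absolute log2 fold change over the square root of F. The tests were checked on simulated data. Ratios used exact permutation over libraries. Chi-square per degree of freedom between libraries of a group was at least 6.76, above counting noise. No pair thus differed by counting noise alone, and all 8 were kept. This check does not show that the libraries are independent. The closest pairs in their groups were BR3 and BR4 (6.76) and R3 and R4 (11.7). Intervals and floors cover counting error only. Alternatives used DESeq2 1.42.0, limma 3.58.1, other scalings and filters, and left-out libraries. The rule named all 4 members, called or photoreceptor genes of the list, and the 3 genes most correlated with each member, of which 1 is printed because the identifiers have no names here; the other listed genes were named after their values were seen. The members and lists were chosen with earlier results of these data known.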

Additional observations from a re-analysis of the deposited data

Results flagged for a closer look

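Groups of 4 libraries were searched for a library far from the other 3, over the 4 genes, the 5 tested listed genes and the 2 ratios, 22 groups in all; chance flags about 1 in 20. One was found. Glyma.04G050200.Wm82.a2.v1, listed as EARLY FLOWERING 3, had 49.9 CPM in BR2, against 31.4, 31.8 and 32.0 CPM in BR1, BR3 and BR4.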

How the results depend on the processing

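All 4 genes kept their sign in every alternative that held them; the filter on a mean FPKM of at least 1 removed E3. With single libraries left out, the log2 fold change was 0.47 to 0.67 for the STF gene on chromosome 8, 0.45 to 0.81 for that on chromosome 18, -1.28 to -0.85 for E3 and 0.26 to 0.54 for E4. The first passed in 13 of 21 alternatives, with adjusted p-values from 0.00886 to 0.117. The second passed in 5 of 21, namely total counts (0.85), without R1 and R2 (1.08), and FPKM with a pseudocount of 1 (0.78), of 0.1 (0.91) and of 1 above a mean of 1 (0.78). E3 passed in 3 of 20, with DESeq2 (-1.08), limma-voom (-1.15) and the replicate block (-1.14, adjusted p = 0.0313). The STF gene on chromosome 8 did not pass with the replicate block (0.59, adjusted p = 0.0706) or without R3 and R4 (0.42). The log2 ratio of E4 to E3 differed by 1.32 to 1.74 and that of the STF copies by -0.35 to 0.07 in 12 alternatives; with the STF ratio far from the threshold, the adjusted p for E4 over E3 could not pass in any of them, so these p-values say nothing of stability.

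Among all genes, total counts gave 4291 higher and 1739 lower calls, and FPKM gave 4692 and 1691, 4586 and 1682, and 4309 and 1663 (pseudocounts 1 and 0.1, and mean at least 1), against 2355 and 3054 with TMM. Of the called genes, 57.7% were higher in BR with upper-quartile scaling, 43.5% with TMM and 71.2% with total counts. Without R1 and R2 10237 genes were called (5160 higher, 5077 lower), and without R3 and R4 3554 (1903 lower). With 1 library left out 2848 to 7333 were called, 1282 to 3463 higher and 1539 to 3870 lower. On the list, 0 genes fell with total counts, without R3 and R4 and in the 3 FPKM tests, 2 fell without R1 and R2, and 0 to 1 with 1 library left out. The causes were not tested. A fit with the replicate block called 4633 genes, of which 4140 were also called without it; between libraries of the same number, deviations from group means had correlations of 0.07, 0.09, -0.08 and 0.09, so the libraries share a number and are not taken as pairs. Depth limits E3 most, at 14 to 59 counts.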

Other observations

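Of the 40 tested genes next to the 4 genes in identifier order, 5 on each side, 6 were called, 1 higher and 5 lower in BR, against 18.3% called among all tested genes. The STF gene on chromosome 8 had 1 called neighbour of 10, which was lower in BR, the STF gene on chromosome 18 had 3 (1 higher, 2 lower), E3 had 2 (both lower) and E4 had 0; neighbours were taken after the data were seen.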
